A study of Caenorhabditis elegans with 25 samples.

Results

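The comparison described here set 5 libraries of flp-17oe animals against 5 libraries of N2 animals, 10 of the 25 libraries of the series, across the 13666 of 42532 genes in the count table that had 10 or more counts in at least 5 of the 10 libraries. The flp-17oe strain (AEF148) was Caenorhabditis elegans with the extrachromosomal array ssrEx1193, which holds flp-17 joined to GFP under the flp-17 promoter together with mCherry under the myo-3 promoter, and N2 is the laboratory wild type with no array. Each library held poly(A) RNA of 500 to 600 whole animals on day 1 of adulthood, and the array strain had been outcrossed 6 times. Array animals were passed through a large particle sorter for the fluorescent marker 24 hours before collection, whereas N2 animals were washed and replated at that time. Replicate 1 of each genotype was batch 1 and replicates 2 to 5 were batch 2. The same array was also present in flp-17oe egl-6(lof) animals (AEF237), which were sorted too. They are set against egl-6(lof) animals (AEF236, allele n4537 in both strains) without the array. These 10 libraries are used below as a second comparison that shares no library with the first. Levels are also given for 5 libraries of flp-17(lof) animals (AEF243), which had no array and were not sorted. Strains AEF236, AEF237 and AEF243 had been outcrossed 6 times as well. An extrachromosomal array is lost from some animals and some cells, only a single array line was used, and its mCherry is driven in body wall muscle. Effects of the FLP-17 peptides, of the other array contents, of sorting and of other differences between the strains cannot be told apart.

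FLP-17 peptides are FMRFamide-like neuropeptides made mainly by the paired BAG neurons, head sensory neurons that respond to oxygen and carbon dioxide. Their receptor EGL-6 is a G protein-coupled receptor that acts through the inhibitory G protein Go in the HSN motor neurons, where its activity slows egg laying. An excess of the peptide is known to make animals retain eggs through this receptor. The adult animal is covered by a collagen cuticle that is rebuilt at each larval molt, and its intestine makes yolk, digestive proteases and most antimicrobial proteins.

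The array gene itself was measured in every library. Transcripts of flp-17 (WBGene00001460, ce11 chromosome IV, 17190204 to 17191891, minus strand) stood at 232, 205, 177, 162 and 177 CPM (counts scaled to library size, with TMM factors for library composition) in flp-17oe, against 5.00, 4.79, 3.89, 5.13 and 4.63 CPM in N2. The genotypes did not overlap, and the log2 change was 5.33 (SE 0.10, adjusted p = 1.76e-10, edgeR quasi-likelihood test with Benjamini-Hochberg adjustment over all genes, as for every adjusted p below). The receptor gene egl-6 (chromosome X, 5931122 to 5934532) stood at 6.54, 5.40, 6.71, 7.63 and 5.74 CPM in flp-17oe, against 5.48, 5.70, 6.45, 6.99 and 5.93 CPM in N2. These values overlapped, with a log2 difference of 0.07 (SE 0.11, adjusted p = 0.729). The muscle myosin gene myo-3, whose promoter is on the array, averaged 45.2 ± 6.34 CPM in flp-17oe and 48.3 ± 4.72 CPM in N2 (SD, n = 5 each), with a log2 difference of -0.10 (SE 0.08, adjusted p = 0.467).

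Across the genome, 735 genes were higher and 393 lower in flp-17oe at an adjusted p under 0.05, which is 8.25% of the genes tested, 5.38% higher and 2.88% lower. The genes that rose changed by more than the genes that fell. Their median log2 change was 0.74, against -0.45 for the genes that fell, beside a median of 0.01 over all genes. The median of the mean log2 CPM, not corrected for gene length, was 1.38 for genes that rose, 4.12 for genes that fell and 3.42 for all genes. A change of over 2-fold was fitted for 249 of the genes that rose and 67 of those that fell. All 5 flp-17oe libraries lay beyond all 5 N2 libraries for 546 of the genes that rose and 263 of those that fell, 71.7% of the called genes. The call rests on these same libraries, so a lack of overlap is no separate support. Its share over all genes tested was not counted, so 71.7% has no background to stand beside. Genes named below by fold, p or CPM difference were also picked among those without overlap. Leaving out flp-17oe replicate 5 brought the counts to 400 higher and 107 lower, and batch 2 alone gave 588 higher and 182 lower. The count of falls was also 183 without flp-17oe replicate 1, 158 without flp-17oe replicate 3, 180 without flp-17oe replicate 4, 190 without N2 replicate 1 and 185 without N2 replicate 4. By chromosome, V had the highest share of genes that rose, 7.79%, followed by X with 6.58%, IV with 5.49% and II with 5.45%, while III had 3.35% and I had 3.28%.

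**Figure D1:**
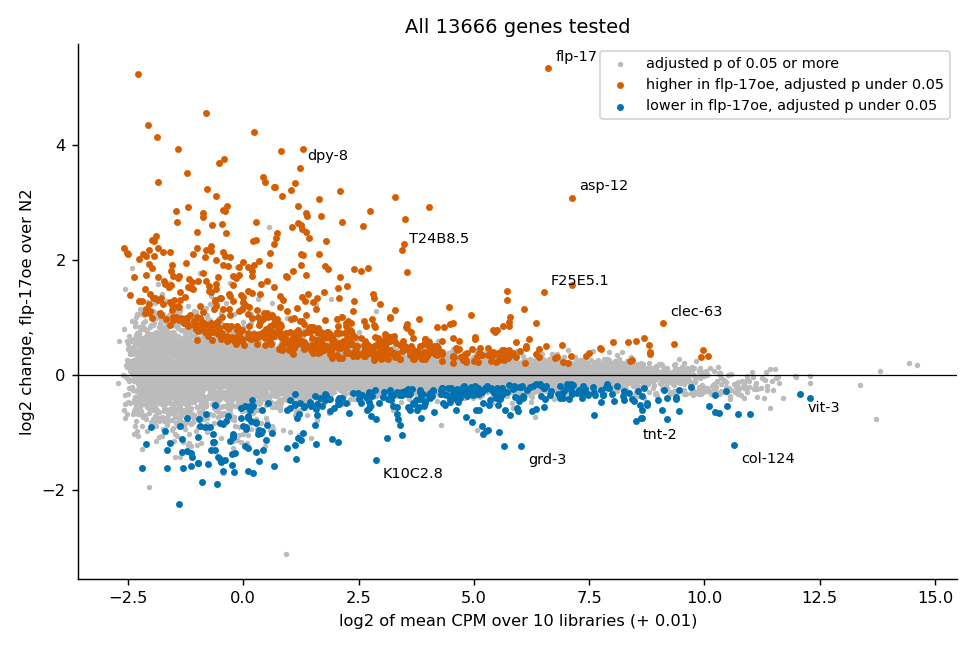
Each point is 1 of 13666 genes, with the log2 of its mean CPM over the 10 libraries on the x axis and the log2 change of flp-17oe over N2 on the y axis. Genes that rose (orange, 735) spread to larger changes and lower mean CPM than genes that fell (blue, 393), and flp-17 has a log2 change of 5.33.

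Libraries held 42201172 to 64805969 counts in flp-17oe and 42696185 to 67059902 counts in N2. On the first principal component, 37.7% of the variance, flp-17oe replicate 1 lay at -6.51 and the other flp-17oe libraries between 24.8 and 35.6, while the N2 libraries lay between -39.0 and -10.7. Both batch 1 libraries were therefore the lowest of their genotype on this axis. Whether the replicates were grown as separate cultures is not stated in the labels, and the p-values measure the spread between these samples, which may be technical. In whole animals, fewer cells of a type and less RNA per cell cannot be told apart. Of the genes that rose, 681 had a positive difference between the batch 1 libraries, 1 per genotype. Of the genes that fell, 392 had a negative one. The batch 1 libraries are part of the fit that called these genes, so the shared sign is no separate support. Its share over all genes was not counted.

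The gene lists described from here on were written with earlier results of these data known. Their counts stand beside shares over all genes of 5.38% higher and 2.88% lower. Cuticle genes changed in both directions. All 6 furrow collagens, which form the circumferential grooves of the cuticle and are made before each molt, rose, with a median log2 change of 2.73. Of the 13 tested collagens named for roller, squat and blister phenotypes, 8 rose, with a median of 2.33. The count was 5 without N2 replicate 3, N2 replicate 4 or flp-17oe replicate 4, 4 without flp-17oe replicate 5 and 3 with no count filter. The furrow collagen gene dpy-8 (chromosome X, 5148804 to 5150476) stood at 1.08, 7.62, 3.92, 3.07 and 5.88 CPM in flp-17oe, against 0.507, 0.417, 0.202, 0.173 and 0.354 CPM in N2. No flp-17oe library overlapped the N2 range (log2 3.60, SE 0.46, adjusted p = 0.00132), and the batch 1 library was the lowest of the 5. For dpy-7 (chromosome X, 7536467 to 7537792) the values were 0.865, 7.96, 4.10, 3.05 and 6.76 CPM in flp-17oe, against 0.748, 0.495, 0.517, 0.442 and 0.743 CPM in N2. Here flp-17oe replicate 1 lay just above the N2 range and the other 4 libraries were several-fold above it (log2 2.82, SE 0.45, adjusted p = 0.00461).

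The furrow genes dpy-2, dpy-3, dpy-9 and dpy-10 rose by log2 2.64 (SE 0.50), 3.22 (SE 0.54), 2.08 (SE 0.43) and 0.94 (SE 0.22), and in all of them flp-17oe replicate 1 lay within the N2 range. The call for dpy-10 was lost without N2 replicate 3, 4 or 5 or flp-17oe replicate 5. The body shape collagens rol-6, rol-8 and lon-3 rose by log2 3.89 (SE 0.79), 3.34 (SE 0.64) and 3.68 (SE 0.75). Replicate 1 of flp-17oe again lay inside the N2 range, and rol-6 was not called with no count filter. In N2, lon-3 levels were 0 to 0.193 CPM. This gene passed the count filter mainly through its flp-17oe libraries, so the filter itself favours a large change. Summed over the 6 furrow genes, levels were 9.04, 48.3, 25.2, 21.0 and 39.6 CPM in flp-17oe, against 8.62, 7.11, 5.88, 5.97 and 7.11 CPM in N2. The difference in the list score (mean over members of log2 CPM minus each gene's mean) was 0.12 in the pair of batch 1 and 2.91 in batch 2, and dpy-8 had the largest batch 1 difference of the 6, log2 1.04.

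Of 18 tested genes of the precuticle, the transient matrix that precedes each new cuticle, 9 rose, with a median of 0.95. Of these 9, 5 had a positive difference in batch 1. The list score differed by 0.17 in the pair of batch 1 and by 1.36 in batch 2. The summed level overlapped, with 696 to 856 CPM in flp-17oe and 542 to 815 CPM in N2. The lipocalin-related genes lpr-3, lpr-6, lpr-5 and lpr-4 rose by log2 2.76 (SE 0.38), 3.36 (SE 0.41), 3.1 (SE 0.46) and 3.27 (SE 0.45). They lie next to each other on chromosome X and form, with apt-9, a run of 5 consecutive tested genes that rose, from 11057401 to 11072047. The rise of apt-9 was log2 0.59 (SE 0.15, adjusted p = 0.038), a call lost without any 1 of the 10 libraries other than N2 replicate 5, with no count filter and in batch 2 alone. For lpr-3 the values were 1.45, 8.91, 5.14, 4.84 and 8.03 CPM in flp-17oe, against 0.966, 0.572, 0.943, 0.595 and 0.831 CPM in N2, with no overlap and an adjusted p of 0.00191. The fibrillin-related gene fbn-1 rose by log2 1.69 (SE 0.35, adjusted p = 0.0148), with replicate 1 of flp-17oe in the N2 range.

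Of 27 tested molting genes, 11 rose, with a median of 0.30, and 7 rose without N2 replicate 4 or 5. Of the 11, 6 had a positive difference in batch 1. The list score differed by 0.18 in the pair of batch 1 and by 0.93 in batch 2. The protease inhibitor gene mlt-11 (chromosome V, 20667205 to 20678537), needed for molting, stood at 2.86, 17.6, 10.9, 9.99 and 17.4 CPM in flp-17oe, against 1.79, 0.665, 2.63, 0.903 and 1.64 CPM in N2. All flp-17oe libraries lay above all N2 libraries (log2 2.84, SE 0.45, adjusted p = 0.00443). The patched-related gene ptr-4 rose by log2 2.33 (SE 0.27, adjusted p = 0.000782). Among 18 regulators that time the molting cycle, 6 rose, and 3 rose without flp-17oe replicate 5. The period homologue lin-42 averaged 9.16 ± 1.32 CPM in flp-17oe and 4.71 ± 0.970 CPM in N2 (SD, n = 5 each, log2 0.97, SE 0.14, adjusted p = 0.00292). The zinc finger gene bed-3 rose by log2 0.75 (SE 0.13, adjusted p = 0.00732). Both differed in batch 1 as well, by log2 1.09 for lin-42 and 1.08 for bed-3.

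The hedgehog-related genes, secreted proteins of the epidermis, split. Of 29 tested, 4 rose and 2 fell, and 2 rose without N2 replicate 4 or 5 or flp-17oe replicate 5. The falls were grd-3 and grd-5. Levels of grd-3 (chromosome IV, 3439655 to 3440453) were 51, 42.2, 37.2, 34.2 and 29.1 CPM in flp-17oe, against 101, 118, 77.2, 75.1 and 83.7 CPM in N2 (log2 -1.25, SE 0.14, adjusted p = 0.000656). Levels of grd-5 (chromosome V, 8619032 to 8619870) were 41.5, 30.8, 29.3, 30.4 and 25.1 CPM in flp-17oe, against 67.5, 70.7, 57.1, 56.5 and 59.8 CPM in N2 (log2 -1.0, SE 0.09, adjusted p = 0.000188). In both genes every flp-17oe library lay below every N2 library, batch 1 included. The related genes wrt-2 and wrt-10 rose by log2 2.46 (SE 0.39) and 2.48 (SE 0.48).

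The numbered cuticle collagens moved both ways, 14 of 97 higher and 22 lower, with a median of 0.03. The count of falls was 13 without N2 replicate 1 or flp-17oe replicate 1, 11 without flp-17oe replicate 3 or 4, 9 without flp-17oe replicate 5 and 12 in batch 2 alone. The rises included the neighbours col-167, col-168, col-169 and col-170 (chromosome X, 6323488 to 6332611), which rose by log2 3.09 (SE 0.44), 3.19 (SE 0.48), 2.76 (SE 0.40) and 2.87 (SE 0.50). For col-167 the values were 14.8, 33.8, 13.6, 11 and 15 CPM in flp-17oe, against 2.15, 4.19, 1.44, 0.749 and 1.59 CPM in N2. In all 4 genes flp-17oe replicate 2 was the highest library, replicate 1 lay above every N2 library, and the rise was present in both batches. The batch 1 difference was log2 2.76 for col-167 and 2.08 for col-170, where that of the 6 furrow genes ran from -0.30 to 1.04. The collagen genes col-147 (log2 2.92, SE 0.38), col-107 (log2 2.71, SE 0.43) and col-144 (log2 1.78, SE 0.17) shared this pattern, with batch 1 differences of 2.59, 3.25 and 2.13. Near-identical collagen genes can share reads, and the counting of such reads is not given in the sources used here.

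Among the collagens that fell, levels of col-124 (chromosome IV, 10216451 to 10217617) were 1280, 1090, 877, 830 and 725 CPM in flp-17oe, against 2980, 2770, 1910, 1720 and 1820 CPM in N2. No library overlapped, and the log2 change was -1.22 (SE 0.14, adjusted p = 0.000822), with -1.22 in the pair of batch 1 and -1.21 within batch 2. The gene col-80 averaged 893 ± 136 CPM in flp-17oe and 1300 ± 197 CPM in N2 (SD, n = 5 each, log2 -0.54, SE 0.10, adjusted p = 0.00754), and col-42 averaged 430 ± 82.9 CPM in flp-17oe and 742 ± 170 CPM in N2 (log2 -0.78, SE 0.15, adjusted p = 0.00997). Beside these falls, the summed level of 8 epidermis markers was 1050 to 1360 CPM in flp-17oe and 1350 to 2160 CPM in N2. Such a sum weighs abundant markers most. The median log2 change of the 8 markers was 0.17, with 2 of the 8 higher and 1 lower, and they include dpy-7 and rol-6. The part of the amount of epidermis in the collagen changes was not tested.

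**Figure D2:**
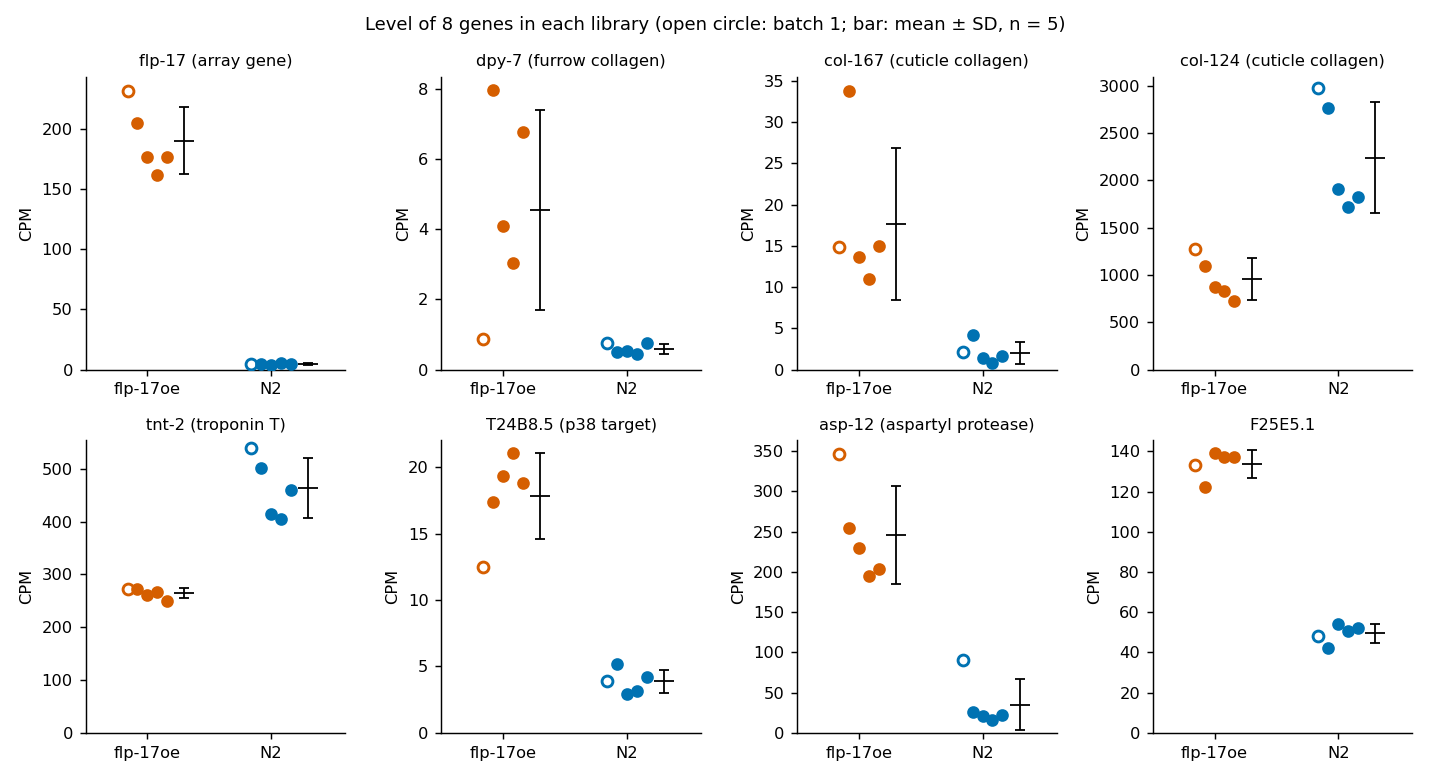
CPM of 8 genes in each library, flp-17oe on the left and N2 on the right, with batch 1 as an open circle, batch 2 as filled circles and the mean ± SD (n = 5) as a bar. The open circle of dpy-7 in flp-17oe (0.865 CPM) sits at the N2 level, while those of col-167, col-124, tnt-2, T24B8.5, asp-12 and F25E5.1 lie on the same side as the rest of flp-17oe.

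Of 18 tested muscle genes of the thin filament, the actin-based part of the contractile apparatus, 8 fell, with a median of -0.28, and 16 of the 18 had a change below 0. The count was 5 without N2 replicate 4 or flp-17oe replicate 3 and 4 without flp-17oe replicate 5. The troponin T gene tnt-2 (chromosome X, 8721546 to 8723550) stood at 273, 272, 261, 267 and 249 CPM in flp-17oe, against 539, 502, 414, 405 and 459 CPM in N2 (log2 -0.81, SE 0.07, adjusted p = 0.000169). The troponin I gene unc-27 (chromosome X, 8789456 to 8790621) stood at 307, 341, 304, 330 and 312 CPM in flp-17oe, against 545, 568, 408, 434 and 483 CPM in N2 (log2 -0.61, SE 0.09, adjusted p = 0.00324). In both genes the flp-17oe libraries lay close together and below all N2 libraries. The tropomyosin gene lev-11 (log2 -0.45, SE 0.07), the calponin-like gene clik-1 (log2 -0.46, SE 0.08) and the actin gene act-4 (log2 -0.40, SE 0.08) also fell, act-4 not without flp-17oe replicate 5. The arginine kinase gene argk-1, of energy buffering, averaged 7.10 ± 1.79 CPM in flp-17oe and 14.7 ± 3.92 CPM in N2 (SD, n = 5 each, log2 -1.05, SE 0.17, adjusted p = 0.00525).

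Of 14 thick filament and titin-like genes, 4 fell and 2 rose, with a median of -0.07, and 1 fell without N2 replicate 1, flp-17oe replicate 1 or flp-17oe replicate 5, or in batch 2 alone, and 2 fell without flp-17oe replicate 3. The rises were unc-82 (log2 0.39, SE 0.09) and unc-96 (log2 0.29, SE 0.06). Of these 2 rises, 0 passed without flp-17oe replicate 5 or in the fit to all 25 libraries, and 1 passed without N2 replicate 1 or 4 or flp-17oe replicate 1 or 4, or in batch 2 alone. The immunoglobulin-repeat gene dim-1 fell by 0.34 on the log2 scale (SE 0.05, adjusted p = 0.00389). The pharyngeal myosin gene myo-2, which is not in that list, rose, with 72.4 ± 15.3 CPM in flp-17oe and 48.9 ± 2.98 CPM in N2 (SD, n = 5 each, log2 0.57, SE 0.12, adjusted p = 0.0178). The call for myo-2 was lost in the fit to all 25 libraries. Of 17 tested pharynx genes, myo-2 included, 3 rose and 2 fell, with a median of 0.21. The summed level of 8 body wall muscle markers was 2450 to 2860 CPM in flp-17oe and 2950 to 3820 CPM in N2, 4 of them lower, and that of 8 pharynx markers was 159 to 266 CPM in flp-17oe and 143 to 164 CPM in N2, 2 of them higher and 1 lower. The muscle and pharynx lists share genes with these markers, and whether the amount of tissue differed was not tested.

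Most listed targets of the PMK-1 p38 MAP kinase pathway, the main innate immune pathway of the intestine, rose. Of 16 tested effector genes, 15 rose (93.8%, beside 5.38% of all genes), with a median log2 change of 0.81. The one that did not was dod-24 (log2 -0.06, SE 0.10, adjusted p = 0.726). These effectors were listed with earlier results of these data known, so their count is no separate support. Leaving out single libraries left 11 to 15 members higher. The effector T24B8.5, a widely used reporter of this pathway (chromosome II, 9082626 to 9083193), stood at 12.5, 17.4, 19.3, 21.1 and 18.8 CPM in flp-17oe, against 3.93, 5.16, 2.96, 3.19 and 4.21 CPM in N2 (log2 2.17, SE 0.16, adjusted p = 5.19e-05). The C-type lectin gene clec-67 (chromosome IV, 3922165 to 3925039) stood at 4.26, 6.05, 5.86, 5.86 and 5.71 CPM in flp-17oe, against 1.69, 1.65, 1.39, 1.44 and 1.56 CPM in N2 (log2 1.83, SE 0.11, adjusted p = 1.47e-05). Neither gene overlapped between the genotypes, and in both the batch 1 library was the lowest of flp-17oe.

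The CUB-like domain gene C17H12.8 averaged 77.2 ± 15.1 CPM in flp-17oe and 28.2 ± 5.27 CPM in N2 (SD, n = 5 each, log2 1.45, SE 0.16, adjusted p = 0.000596). The CUB-like gene dod-22 rose by log2 2.47 (SE 0.39), the infection response gene irg-4 by 1.34 (SE 0.14) and the lysozyme gene lys-2 by 0.75 (SE 0.12). Rises were smaller in the pair of batch 1 for C17H12.8 (0.60), dod-22 (0.40) and lys-2 (0.14), and close to the fitted change for irg-4 (1.27). The 10 tested kinases and adaptors of the pathway itself had 0 members past the threshold in edgeR, with a median of 0.16, while 3 had an unadjusted p under 0.05, 2 were higher in DESeq2 and 3 without flp-17oe replicate 2.

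The C-type lectin genes, secreted carbohydrate-binding proteins many of which respond to infection, had 23 of 104 members higher and 7 lower, with a median of 0.06. The count of rises was 15 without flp-17oe replicate 4 and 13 without flp-17oe replicate 5, and that of falls was 4 without N2 replicate 3 or flp-17oe replicate 2, 3 without flp-17oe replicate 3, 2 without N2 replicate 4 and 1 without flp-17oe replicate 4 or 5. Neighbouring lectins rose together. The genes clec-62, clec-63, clec-64 and clec-65 occupy chromosome II from 12893062 to 12903336. Levels of clec-63 were 665, 779, 676, 731 and 709 CPM in flp-17oe, against 460, 405, 355, 331 and 374 CPM in N2, without overlap (log2 0.89, SE 0.09, adjusted p = 0.000285). Its neighbours changed by log2 1.04 (SE 0.13) for clec-62, 1.73 (SE 0.27) for clec-64 and 0.43 (SE 0.06) for clec-65. On chromosome IV, clec-72 rose by log2 2.35 (SE 0.22), in a run of 3 consecutive tested genes that rose, clec-67, clec-70 and clec-72. Of 55 tested lysozyme, saposin and antimicrobial peptide genes, 3 rose and 2 fell, shares of 5.45% and 3.64% that lie near those of all genes. There 6 rose without flp-17oe replicate 1, N2 replicate 1 or N2 replicate 2 and 5 in batch 2 alone, and 4 fell without flp-17oe replicate 2 and 5 without N2 replicate 3.

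Of 20 tested aspartyl and cathepsin B-like cysteine protease genes, many of them digestive enzymes of the intestine, 10 rose and 2 fell, with a median of 0.28. The aspartyl protease gene asp-12 (chromosome V, 8269210 to 8272056) had the largest rise among them, with 346, 254, 229, 195 and 204 CPM in flp-17oe, against 90.8, 26.4, 20.8, 16.2 and 21.8 CPM in N2. No library overlapped, the batch 1 library was the highest of both genotypes, and the log2 change was 3.08 (SE 0.23, adjusted p = 5.19e-05), with 1.93 in the pair of batch 1 and 3.38 within batch 2. It lies between asp-6 and asp-5, which rose by log2 0.33 (SE 0.05) and 0.52 (SE 0.07). The lysosomal cathepsin D-like gene asp-3 averaged 1150 ± 63.1 CPM in flp-17oe and 857 ± 90.1 CPM in N2 (SD, n = 5 each, log2 0.43, SE 0.07, adjusted p = 0.00443), and the cathepsin B gene cpr-4 rose by log2 0.63 (SE 0.12, adjusted p = 0.00974). The gene asp-14 fell, with 27.2 ± 1.89 CPM in flp-17oe and 41.6 ± 5.00 CPM in N2 (SD, n = 5 each, log2 -0.61, SE 0.08, adjusted p = 0.00197).

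The secreted protease-like gene hrg-7, known for signalling heme status from the intestine to neurons (chromosome V, 12742041 to 12744171), stood at 210, 242, 215, 189 and 171 CPM in flp-17oe, against 130, 71.6, 62.1, 52.1 and 52.4 CPM in N2. All flp-17oe libraries were above all N2 libraries, of which the batch 1 library was the highest (log2 1.56, SE 0.18, adjusted p = 0.000621). The summed level of 8 intestine markers was 47400 to 56300 CPM in flp-17oe and 41000 to 51500 CPM in N2, with 1 marker higher and 1 lower. These ranges overlap, and the part of intestinal mass in the protease and immune changes was not tested.

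Among detoxification genes, 12 of 60 UDP-glucuronosyltransferase genes, which conjugate foreign and internal compounds, rose, with a median of 0.06, and 7 rose without flp-17oe replicate 3. The gene ugt-18 (chromosome V, 12820260 to 12822778) stood at 1.57, 1.25, 0.876, 1.84 and 1.41 CPM in flp-17oe, against 0.121, 0.0927, 0.0225, 0.0768 and 0.177 CPM in N2 (log2 3.76, SE 0.33, adjusted p = 0.000145). The glutathione transferase gene gst-24 (chromosome II, 13610443 to 13611366) stood at 7.23, 9.91, 7.72, 6.77 and 6.54 CPM in flp-17oe, against 1.21, 2.09, 0.831, 1.04 and 0.814 CPM in N2 (log2 2.65, SE 0.24, adjusted p = 0.000188). Both separated the genotypes in every library, with batch 1 differences of log2 3.34 for ugt-18 and 2.54 for gst-24. N2 levels of ugt-18 were at most 0.177 CPM. It passed the count filter mainly through its flp-17oe libraries, so the filter itself favours a large ratio. Of 39 tested glutathione transferase genes, 3 rose (7.69%, beside 5.38% of all genes) and 0 fell, with a median of -0.04. Leaving out single libraries left 2 to 5 higher and 0 to 2 lower. Of 57 cytochrome P450 genes, 3 rose and 2 fell, shares of 5.26% and 3.51% that lie near those of all genes, and 0 rose without flp-17oe replicate 5 and 4 fell without flp-17oe replicate 2. The manganese superoxide dismutase gene sod-3, a target of the FOXO factor DAF-16, averaged 0.816 ± 0.186 CPM in flp-17oe and 1.67 ± 0.147 CPM in N2 (SD, n = 5 each, log2 -1.04, SE 0.15, adjusted p = 0.00211). Of 18 tested DAF-16 targets, sod-3 included, 1 rose (5.56%) and 3 fell (16.7%), with a median of -0.12. Leaving out single libraries left 0 to 2 higher and 1 to 4 lower. The myo-inositol transporter gene hmit-1.1, which responds to osmotic stress, rose by log2 1.88 (SE 0.33, adjusted p = 0.00719).

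In fat metabolism, 7 of 57 fatty acid oxidation genes fell and 3 rose, with a median of -0.06, and 3 fell without flp-17oe replicate 5. The acyl-CoA dehydrogenase gene acdh-2 (chromosome II, 5544778 to 5547492) stood at 26.9, 24.2, 25.7, 22.5 and 21.8 CPM in flp-17oe, against 46.5, 57.6, 50.3, 49.1 and 45.8 CPM in N2 (log2 -1.04, SE 0.08, adjusted p = 7.95e-05). The thiolase gene kat-1 fell by 0.33 on the log2 scale (SE 0.05) and the enoyl-CoA hydratase gene ech-9 rose by 2.60 (SE 0.34), with an overlap between flp-17oe replicate 3 and N2 replicate 1. The desaturase genes of polyunsaturated fat moved apart, fat-2 with a log2 change of 0.36 (SE 0.06) and fat-3 with -0.38 (SE 0.07). Of 6 vitellogenin genes, which encode yolk, 2 fell, 1 without N2 replicate 3 or 5 or flp-17oe replicate 2 or 3 and 0 without N2 replicate 4 or flp-17oe replicate 4 or 5. The gene vit-3 averaged 3800 ± 192 CPM in flp-17oe and 4800 ± 316 CPM in N2 (SD, n = 5 each, log2 -0.34, SE 0.07, adjusted p = 0.0163), a call lost without N2 replicate 4 or flp-17oe replicate 4 or 5.

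Of 23 tested pan-neuronal genes, 6 rose, with a median of 0.20, and 2 rose in batch 2 alone or without N2 replicate 1, flp-17oe replicate 1 or flp-17oe replicate 5. The synaptic vesicle GTPase gene rab-3 (chromosome II, 5721767 to 5727853) stood at 5.6, 5.23, 5.46, 5.04 and 5.38 CPM in flp-17oe, against 3.65, 2.64, 3.32, 3.28 and 3.40 CPM in N2 (log2 0.72, SE 0.09, adjusted p = 0.00107). The gene snt-1 of the vesicle calcium sensor synaptotagmin rose by log2 0.64 (SE 0.12, adjusted p = 0.0109), and the innexin gene unc-7, of neuronal gap junctions, by 1.00 (SE 0.12, adjusted p = 0.000943). The proprotein convertase genes egl-3, which cuts neuropeptide precursors, and aex-5 rose by log2 0.38 (SE 0.06) and 0.62 (SE 0.08). The summed level of 8 neuron markers was 286 to 305 CPM in flp-17oe and 260 to 292 CPM in N2, with 2 markers higher, and its part in these rises was not tested.

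In the pathway the array gene acts on, 43 tested genes of EGL-6 signalling and the egg-laying circuit, flp-17 itself among them, had 6 members higher, with a median of 0.26. Besides flp-17, the members that rose and kept the call whichever library was left out were dgk-1, egl-2 and lgc-55. The diacylglycerol kinase gene dgk-1, which acts with Go signalling to restrain egg laying (chromosome X, 983903 to 991456), stood at 4.32, 5.21, 4.63, 3.94 and 4.27 CPM in flp-17oe, against 2.90, 2.23, 2.88, 2.67 and 2.78 CPM in N2 (log2 0.74, SE 0.11, adjusted p = 0.00295). The potassium channel gene egl-2 rose by log2 0.71 (SE 0.13, adjusted p = 0.00962) and the tyramine-gated chloride channel gene lgc-55 by 0.84 (SE 0.18, adjusted p = 0.0151). Of 19 genes expressed in BAG neurons, 0 passed in edgeR, with a median of 0.24, while 7 were higher at an unadjusted p under 0.05 and 2 in DESeq2. Of 29 FMRFamide-like peptide genes other than flp-17, 0 passed in edgeR, with a median of 0.17, while 4 were higher at an unadjusted p under 0.05 and 1 in DESeq2. Among 58 tested receptors of FMRFamide-type peptides, npr-11 alone passed, with a log2 change of -0.53 (SE 0.15, adjusted p = 0.0486), a call lost without any 1 of the 10 libraries.

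**Figure D3:**
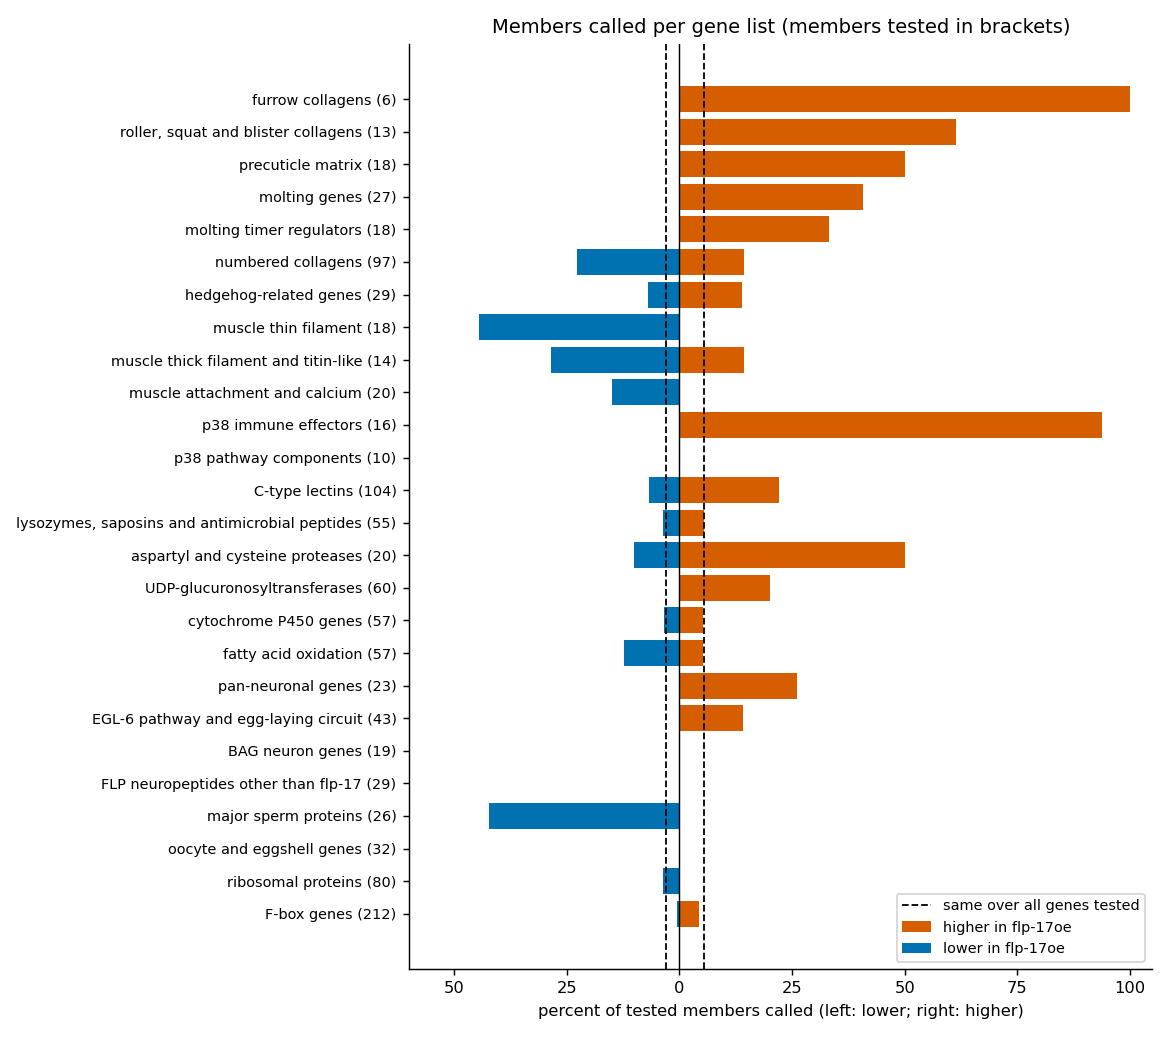
Percent of tested members called higher (orange, right) and lower (blue, left) in flp-17oe for 26 gene lists, with the number tested in brackets and dashed lines at the shares over all genes, 5.38% higher and 2.88% lower. Furrow collagens (6 of 6) and p38 immune effectors (15 of 16) stand furthest to the right, thin filament and major sperm protein genes furthest to the left.

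The germ line lists differed in how far they depended on single libraries. The major sperm protein genes, which encode the cytoskeletal protein of nematode sperm, had 11 of 26 members lower, with a median of -1.04. Their summed level was 76.9, 14.4, 8.23, 9.79 and 5.43 CPM in flp-17oe, against 175, 17.6, 23.3, 20.1 and 10.6 CPM in N2, so the batch 1 library stood far above the others in both genotypes and the ranges overlapped. The count of falls was 1 without flp-17oe replicate 1, 17 without its replicate 2, 3 without its replicate 3, 4 without its replicate 4 and 2 without its replicate 5. Among N2 libraries it was 2 without replicate 1, 6 without replicate 3, 3 without replicate 4 and 19 without replicate 5. It was 1 in batch 2 alone and 0 with no batch term. These genes are near-identical copies, and their counts are uncertain one by one. Of 32 oocyte and eggshell genes, 0 passed in edgeR, in DESeq2 or at an unadjusted p under 0.05, with a median of 0.04. Of 23 early zygotic genes, 0 passed in edgeR or DESeq2, with a median of -0.09, while 1 was higher and 3 lower at an unadjusted p under 0.05. The summed level of 8 oocyte markers was 6930 to 7980 CPM in flp-17oe and 6570 to 7930 CPM in N2.

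Of 80 ribosomal protein genes, 78 had a change of 0 or below, with a median of -0.27, and 3 fell in edgeR, a share of 3.75% beside 2.88% over all genes. The count depended strongly on the method, with 26 lower in DESeq2, 71 with the replicate number as a block in place of batch and 58 at an unadjusted p under 0.05. In edgeR 10 fell without N2 replicate 3, 1 without N2 replicate 4, and 0 without N2 replicate 1 or 5 or flp-17oe replicate 1, 3 or 5 or in batch 2 alone. The elongation factor gene eef-1A.2 rose, with 310 ± 14.4 CPM in flp-17oe and 210 ± 12.5 CPM in N2 (SD, n = 5 each, log2 0.56, SE 0.06, adjusted p = 0.000397).

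**Figure D4:**
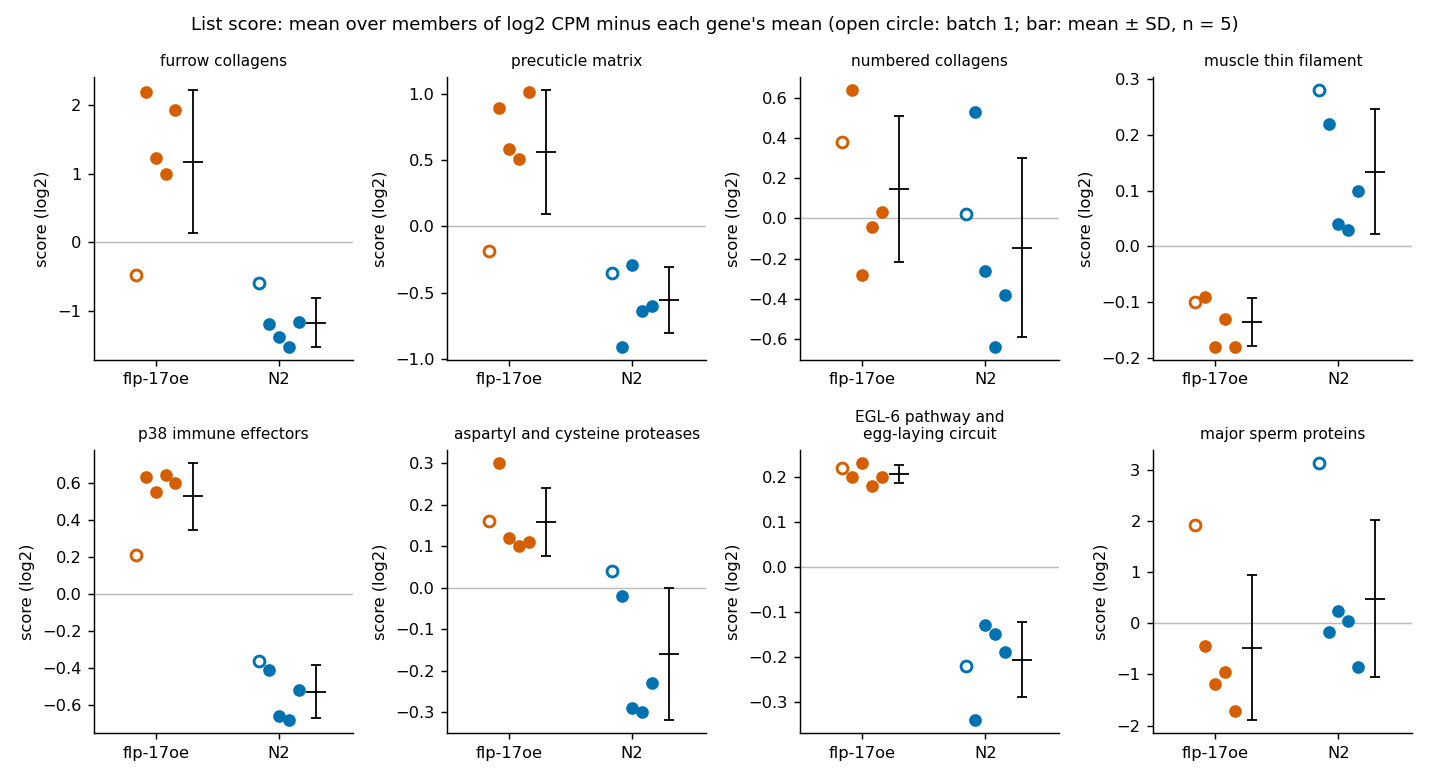
Score of 8 gene lists in each library (mean over members of log2 CPM minus each gene's mean), flp-17oe left and N2 right, batch 1 as an open circle and the mean ± SD (n = 5) as a bar. The furrow collagen score of flp-17oe in batch 1 (-0.48) sits beside that of N2 in batch 1 (-0.60), whereas p38 effectors (0.21 in flp-17oe and -0.36 in N2 in batch 1), thin filament genes and the egg-laying list separate the genotypes in both batches. The egg-laying list holds flp-17 itself, and without it the score was 0.12 to 0.18 in flp-17oe and -0.29 to -0.06 in N2.

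Some of the smallest p-values belonged to single genes outside these groups. The gene F25E5.1 (chromosome V, 7465884 to 7471288) stood at 133, 122, 139, 137 and 137 CPM in flp-17oe, against 48, 42, 54.2, 50.9 and 52.3 CPM in N2 (log2 1.43, SE 0.07, adjusted p = 5.05e-06). The tubby-related gene tub-2 averaged 57.4 ± 1.41 CPM in flp-17oe and 33.8 ± 2.79 CPM in N2 (SD, n = 5 each, log2 0.77, SE 0.06, adjusted p = 9.63e-05), and dod-19, found as a gene downstream of daf-16, averaged 106 ± 7.17 CPM in flp-17oe and 56.4 ± 2.62 CPM in N2 (log2 0.90, SE 0.05, adjusted p = 1.47e-05). These 3 genes were picked for a small p and no overlap, so a spread that is small beside the difference follows from that choice. Among falls, K10C2.8 (chromosome X, 6436440 to 6437645) stood at 6.59, 3.37, 3.73, 3.07 and 3.01 CPM in flp-17oe, against 13.7, 11.6, 9.75, 9.87 and 8.53 CPM in N2 (log2 -1.48, SE 0.12, adjusted p = 8.53e-05). The gene dhs-25 of a short-chain dehydrogenase fell by 0.70 on the log2 scale (SE 0.08, adjusted p = 0.000525), and pho-11 of the acid phosphatase family fell by 0.89 (SE 0.08, adjusted p = 0.000208).

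Some genes that changed were neighbours. On chromosome I, tag-344, the F-box gene fbxa-125 and B0511.11 form a run of 3 consecutive tested genes that rose, from 10644245 to 10654237. Levels of B0511.11 were 8.58, 9.25, 7.38, 7.58 and 8.61 CPM in flp-17oe, against 2.97, 2.84, 1.84, 1.96 and 2.02 CPM in N2 (log2 1.84, SE 0.13, adjusted p = 5.19e-05). For fbxa-125 there were 25, 22, 13, 18 and 23 counts in flp-17oe, against 2, 0, 0, 0 and 0 counts in N2. The ratio of summed counts, scaled to library size, was 49.2. This gene passed the count filter through its flp-17oe libraries alone, so the filter itself favours a large ratio. On chromosome II, bath-46, bath-26 and bath-47, of a protein family that delivers substrates to ubiquitin ligases, rose by log2 1.91 (SE 0.34), 1.68 (SE 0.25) and 1.69 (SE 0.29). A run of 4 genes that fell, D1086.6 among them (log2 -0.62, SE 0.06, adjusted p = 0.000338), lies on chromosome V from 14074460 to 14085811.

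The same array was then compared in animals that lack normal EGL-6, to see which differences recur where the receptor gene is mutated. In flp-17oe egl-6(lof) against egl-6(lof), 1548 of 14136 genes were called, 11.0% of those tested, 622 higher and 926 lower. Without egl-6(lof) replicates 2, 3, 4 and 5 in turn, 332, 359, 329 and 387 were higher, and without replicates 2, 3 and 4, 481, 541 and 471 were lower. Of the genes that rose in flp-17oe against N2 and were tested in both, 713 of 727 changed in the same direction in the second comparison and 298 were called there too, 41% of this list and 47.9% of the genes called higher in the egl-6(lof) background. Of the genes that fell, 376 of 392 had the same direction and 229 were called, 58.4% of this list and 24.7% of the genes called lower in the egl-6(lof) background. A single gene, B0511.11, was called in opposite directions, with a log2 change of 1.84 (SE 0.13) in the N2 background and -0.64 (SE 0.15, adjusted p = 0.0162) in the egl-6(lof) background. Sorted animals were set against unsorted ones in both comparisons. The share of all genes tested that changed in the same direction in both was not counted.

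The gene lists differed in how many members were called with the array in the receptor mutant. All 6 furrow collagens rose there, with a median of 2.36, but the count was 0 without egl-6(lof) replicate 2, 1 without its replicate 4 and 4 without its replicate 3 or 5. Their summed level, scaled over all 25 libraries, was 12.7, 32.5, 17.2, 31.4 and 78.7 CPM in flp-17oe egl-6(lof), against 7.84, 9.78, 7.89, 9.72 and 9.60 CPM in egl-6(lof), with the batch 1 library again the lowest of the array animals. In flp-17(lof), which has no array and was not sorted, the sum was 5.62 to 8.08 CPM. Of the 16 p38 effectors, 14 rose, with a median of 0.94, and their summed level was 231 to 341 CPM in flp-17oe egl-6(lof), against 128 to 154 CPM in egl-6(lof). All 8 thin filament genes that fell in the N2 background were called lower again, with a summed level over the 18 genes of 3820 to 5110 CPM in flp-17oe egl-6(lof), against 5260 to 6590 CPM in egl-6(lof). The level of asp-12 changed by log2 2.32 (SE 0.08) there, that of T24B8.5 by 2.61 (SE 0.11), that of col-124 by -2.08 (SE 0.31) and that of flp-17 by 5.64 (SE 0.10). Of the 13 roller, squat and blister collagens, 3 rose and 1 fell there, with a median of 1.74, where 8 rose in the N2 background, and leaving out single libraries left 0 to 5 higher. Of the 43 genes of EGL-6 signalling and the egg-laying circuit, flp-17 alone was called there, with a list median of 0.08 against 0.26 in the N2 background. Among the others dgk-1 had a log2 change of 0.52 (adjusted p = 0.191), egl-2 of 0.29 (adjusted p = 0.445) and lgc-55 of 0.70 (adjusted p = 0.0877). Of the 23 pan-neuronal genes, 0 passed in edgeR or DESeq2, with a median of 0.14, while 4 were higher at an unadjusted p under 0.05.

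The major sperm protein genes had 25 of 26 members lower in the receptor mutant, with a median of -3.2. Their summed level, scaled over all 25 libraries, was 64.3, 2.65, 4.81, 18.8 and 6.8 CPM in flp-17oe egl-6(lof), against 74.1, 136, 171, 160 and 82.8 CPM in egl-6(lof). The genotypes did not overlap, and the batch 1 library was the highest of flp-17oe egl-6(lof) and the lowest of egl-6(lof). Leaving out flp-17oe egl-6(lof) replicates 2, 3, 4 and 5 in turn left 8, 1, 6 and 1 members lower, leaving out egl-6(lof) replicates 2, 3 and 4 left 7, 13 and 2, and the replicate number as a block left 0. How these lists differ between the backgrounds was not tested list by list.

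Some single genes called in the N2 background were not called in the receptor mutant, argk-1 with a log2 change of -0.04 (SE 0.25, adjusted p = 0.958), hrg-7 with 0.56 (SE 0.17, adjusted p = 0.0662) and rab-3 with 0.44 (SE 0.17, adjusted p = 0.143). None of these 3, nor dgk-1, egl-2 or lgc-55, passed the interaction test below, so a difference between the backgrounds is not shown for them.

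**Figure D5:**
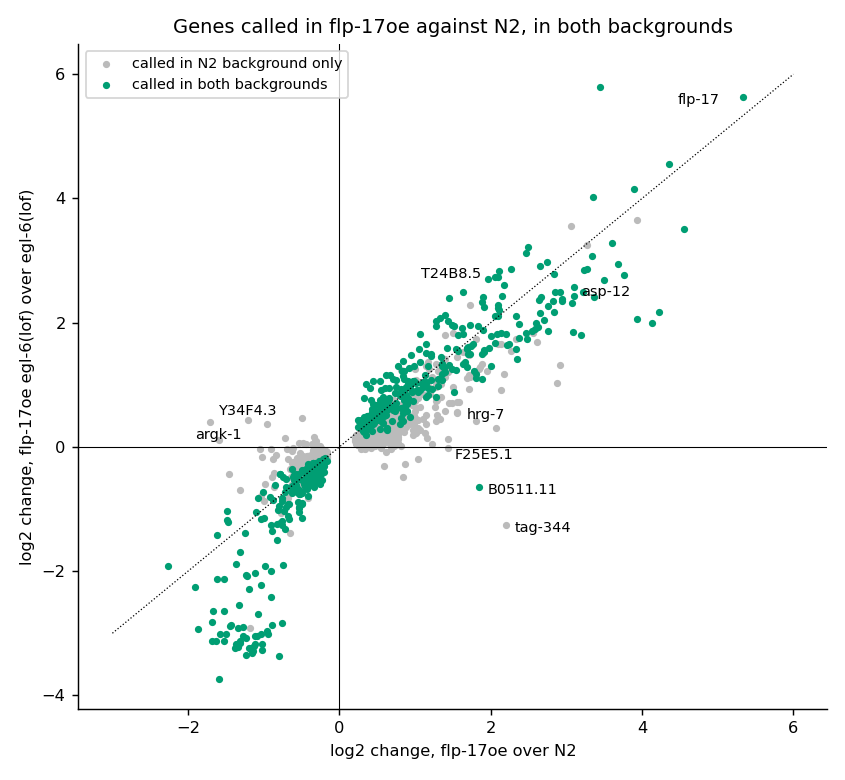
Genes called in flp-17oe against N2, with that log2 change on the x axis and the log2 change of flp-17oe egl-6(lof) over egl-6(lof) on the y axis; green points were called in both comparisons, grey points in the first alone and the dotted line marks equal changes. Of the genes that rose, 713 of 727 share their sign, and B0511.11 is a green point with opposite signs.

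Whether the change with the array differed between the backgrounds was tested as the interaction of array and egl-6(lof) in a model of 20 libraries. Its log2 value is the change with the array in egl-6(lof) minus that in N2. The groups are separate strains, so other differences between the strains enter this value. Dependence on the receptor was not isolated. Of 14702 genes, 8 passed, 0.0544%. Without replicate 1, which leaves batch 2 alone, 8 genes were higher and 96 lower, against 2 and 6 with both batches, and leaving out any other replicate number left 3 to 5 genes. For F25E5.1 the levels were 134 ± 6.95 CPM in flp-17oe and 49.5 ± 4.74 CPM in N2, and 49.6 ± 5.27 CPM in flp-17oe egl-6(lof) and 45.6 ± 3.08 CPM in egl-6(lof) (SD, n = 5 each, interaction log2 -1.32, SE 0.10, adjusted p = 4.38e-07). The rise of this gene passed in the N2 background, while in the receptor mutant the difference was log2 0.12 (SE 0.07, adjusted p = 0.351). For B0511.11 the levels were 8.28 ± 0.782 CPM in flp-17oe and 2.33 ± 0.535 CPM in N2, and 3.52 ± 0.417 CPM in flp-17oe egl-6(lof) and 5.57 ± 1.07 CPM in egl-6(lof) (interaction log2 -2.50, SE 0.22, adjusted p = 3.44e-06). For F36D3.1 they were 54.3 ± 1.94 CPM in flp-17oe and 31.6 ± 2.05 CPM in N2, and 28.3 ± 0.726 CPM in flp-17oe egl-6(lof) and 27.1 ± 1.28 CPM in egl-6(lof) (interaction log2 -0.72, SE 0.07, adjusted p = 3.92e-05), and in flp-17(lof) the gene stood at 45.8 ± 7.12 CPM.

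A further 5 genes passed the interaction test. Levels of Y34F4.3 were 0.252, 0.635, 0.599, 0.575 and 0.691 CPM in flp-17oe, against 1.74, 2.15, 1.62, 1.84 and 1.47 CPM in N2, while they averaged 1.84 ± 0.222 CPM in flp-17oe egl-6(lof) and 1.39 ± 0.305 CPM in egl-6(lof) (SD, n = 5 each, interaction log2 2.09, SE 0.29, adjusted p = 0.0029). The gene tub-2 averaged 38.3 ± 5.63 CPM in flp-17oe egl-6(lof) and 34.2 ± 1.87 CPM in egl-6(lof) (interaction log2 -0.61, SE 0.11, adjusted p = 0.0275). The genes fbxa-125, R08E5.3 and Y73B6BL.44 completed the 8. For R08E5.3 the levels were 17.4 ± 1.06 CPM in flp-17oe and 14.9 ± 1.57 CPM in N2 (SD, n = 5 each), while the log2 change in the receptor mutant was -0.74 (SE 0.09, adjusted p = 0.000656), an interaction of -0.96 (SE 0.16, adjusted p = 0.0157). Neither R08E5.3 nor Y73B6BL.44 passed the test in flp-17oe against N2, with log2 changes of 0.22 (SE 0.08) and -0.28 (SE 0.09). No furrow collagen, p38 effector or thin filament gene was among the 8. An interaction that missed the threshold does not show equal effects in both backgrounds.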

How the data were processed

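Poly(A) RNA libraries of whole day 1 adults were used, 5 of flp-17oe and 5 of N2, with the 10 libraries of flp-17oe egl-6(lof) and egl-6(lof) as a second comparison and flp-17(lof) for levels only. The authors deposited raw counts per gene and library. Reads were aligned with STAR 2.7.11b to ce11, per the submitters' processing notes. How reads were then counted, on which annotation and with which strand setting, is nowhere given in the sources used here, so counts of overlapping genes and of near-identical copies are uncertain.

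Genes with 10 or more counts in at least 5 of the compared libraries were fitted with edgeR 4.0.16 (robust quasi-likelihood, TMM, with limma 3.58.1 in R 4.3.3), with terms for genotype and batch, and called at a Benjamini-Hochberg adjusted p under 0.05 over all genes. The fit used only the 10 compared libraries, or 20 for the interaction. CPM values use TMM-scaled library sizes and carry the SD over replicates. The procedure was tested on simulated data. Replicates differed by more than sampling noise, with a chi-square per gene of 8.75 or more.

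Positions came from Ensembl 115, which matched 41367 of 42532 genes. The text names flp-17, myo-3 and egl-6, the 12 largest rises and falls by log2 change, the 10 rises and falls with the smallest p and the 10 with the largest CPM difference, among called genes with no overlap and mean log2 CPM not under 1. From these sets only some are printed. It adds up to 4 called members of each of 53 gene lists by p. The genes dpy-9, dpy-10, fbn-1, col-170, act-4, dod-24, clec-62, clec-64, clec-65, apt-9, tag-344, Y34F4.3, R08E5.3, Y73B6BL.44, unc-82, unc-96 and eef-1A.2 were chosen after their values were seen. Members and lists were chosen with earlier results of these data known. Lists are described by counts and medians, with no test of their own, and lists not printed are left out for space. Alternatives were DESeq2 1.42.0, RLE size factors, other count filters, no batch term, a replicate block and batch 2 alone. The fit was also run on all 25 libraries, with and without flp-17(lof) replicate 1, and on the compared libraries with each left out. Same-numbered libraries were not taken as pairs.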

Additional observations from a re-analysis of the deposited data

Results flagged for a closer look

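Of 254 groups of 5 libraries examined among the named genes and list scores, 24 (9.45%) had a library far from the other 4, where chance flags about 1 in 20. Batch 1 libraries account for many of them. In N2, replicate 1 stood apart for asp-12 (90.8 CPM, against 16.2 to 26.4 CPM in the other N2 libraries), hrg-7 (130 CPM, against 52.1 to 71.6), dim-1 (152 CPM, against 116 to 126), snt-1 (4.3 CPM), dpy-2 (1.13 CPM), ech-9 (2.12 CPM), tag-344 (0.531 CPM) and fbxa-125 (0.0483 CPM, against 0 in the others). The same N2 library had the highest scores of the major sperm proteins (3.13) and of other spermatogenesis genes (1.76). In flp-17oe, replicate 1 was low for clec-67 (4.26 CPM, against 5.71 to 6.05), Y34F4.3 (0.252 CPM) and the p38 effector score (0.21, against 0.55 to 0.64), and high for tub-2 (59.9 CPM) and K10C2.8 (6.59 CPM).

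Replicate 2 of flp-17oe stood apart for col-167 (33.8 CPM, against 11 to 15 CPM) and col-168 (15.8 CPM), and for the scores of molting timer regulators (0.06), p38 pathway components (-0.15) and oocyte and eggshell genes (-0.17). Replicate 2 of N2 stood apart for col-168 (1.92 CPM), col-107 (6.43 CPM) and dod-19 (60.9 CPM), and replicate 4 of N2 for bath-26 (0.231 CPM). What sets these libraries apart was not tested.

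The change with the array differed between the egl-6(lof) and N2 backgrounds, by the interaction test, for 8 genes. These backgrounds are separate strains, and other differences between them were not tested. The change with the array in egl-6(lof) minus that in N2 was log2 -1.32 for F25E5.1, -2.50 for B0511.11, -0.72 for F36D3.1, -0.61 for tub-2, -0.96 for R08E5.3, 2.09 for Y34F4.3 and 0.66 for Y73B6BL.44. For fbxa-125 the fitted value was -6.0, which depends on the prior count because N2 held 2 counts in all.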

How the results depend on the processing

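The count of genes called in flp-17oe against N2 depended on the method more for falls than for rises. DESeq2 called 982 higher and 895 lower, the fit to all libraries less flp-17(lof) replicate 1 called 829 and 607, and batch 2 alone 588 and 182, against 735 and 393. RLE size factors, other filters, no batch term and all 25 libraries gave 634 to 738 higher and 332 to 432 lower. With 1 library left out, 400 to 673 were higher and 107 to 481 lower. In the egl-6(lof) background the ranges were 329 to 636 higher and 471 to 1001 lower. For the interaction, DESeq2 called 11 higher and 41 lower, batch 2 alone 8 and 96, and leaving out a replicate number gave 0 to 8 higher and 3 to 96 lower. Numbers were tried as a replicate block in place of batch, which gave 1482 higher and 1638 lower, although same-numbered flp-17oe and N2 libraries correlated by 0.486, 0.559, 0.0795, 0.16 and 0.362 and replicates 3 and 4 of flp-17oe correlated best with another number, so the numbers are not treated as pairs. The change of dod-24 turned to 0.06 in batch 2 alone, and lay between -0.09 and 0.06 with 1 library left out. With flp-17 left out of the egg-laying list, an alternative chosen after seeing the data, the score difference of flp-17oe minus N2 was 0.30, against 0.41 with it. The cause was not tested. Of 102 named genes, 88 kept their direction and their side of the threshold in every alternative that could be fitted. Low counts limit the scarce genes, such as fbxa-125, tag-344, ugt-18 and lon-3.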
